A study of Mus musculus with 88 samples.

Results

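Enzymes and cofactors of protein ubiquitination were followed here through 3 gene families in RAW 264.7 cells, a mouse macrophage-like line, after exposure to bacterial lipopolysaccharide (LPS), to isoproterenol (ISO), a beta-adrenergic agonist, or to the lipid mediator prostaglandin E2 (PGE2). The members were all genes of the array's annotation whose current symbol begins with Ube2, or with Usp or Trim and a digit, apart from Usp18. The rule found 75 genes of 10698 with a symbol, namely 25 of the Ube2 group (called E2 below), 26 Usp genes (USP) and 24 Trim genes (TRIM). Values other than 0 existed for 74 of them, against 10518 of all genes, since Usp10 was listed at 0 on all 88 arrays. Symbols do not always name a function. Ube2cbp encodes a protein that binds an E2, Usp46os2 is a transcript from the strand opposite another gene, and Usp39 encodes a splicing factor without protease activity.

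The treatments were LPS with ISO (100 ng/ml and 50 nM), LPS with PGE2 (100 ng/ml and 10 µM), LPS alone (100 ng/ml, for which the labels add 100 pM lipid binding protein), ISO alone (50 nM) and PGE2 alone (10 µM), each for 1, 2 or 4 h. Each treated RNA was hybridised on 2-colour arrays against RNA of cells left in culture medium for the same time. A set was measured with the dyes in both orientations, and each of the 15 groups had 3 sets of 2 arrays, except PGE2 at 1 h with 2 sets. All results come from a single transformed cell line, whose macrophage markers were measured for 9 of 10 genes (7 of them with a value on at least 80 arrays), against 19 of 20 markers of other cell types (6 on at least 80 arrays). Ratios carry no expression level, so the markers show only that their probes returned values. The labels do not say whether sets were separate cultures, and the spread behind each p-value may therefore be technical. Nor do they say whether treatments of the same set and hour were read against the same medium RNA. Likeness between treatments is for that reason given only as values side by side.

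Ubiquitin is passed from an E1 enzyme to an E2 conjugating enzyme and, with the help of an E3 ligase, to a target protein, where the shape of the chain decides whether the target is degraded or takes part in signalling. E2 enzymes set the chain type, most TRIM proteins are RING-type E3 ligases and many of them act in antiviral and Toll-like receptor signalling, and USP proteins are cysteine proteases that remove ubiquitin. Related conjugation systems use their own E2 enzymes, among them Ube2l6 for the interferon-induced modifier ISG15 and Ube2f for NEDD8, the activator of cullin ligases.

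Promoter windows are shown for the 5 TRIM genes that hold the core of an interferon-stimulated response element, and for Trim25 and Ube2l6, which do not hold it. After 4 h of LPS, Trim21, Trim34a, Trim30a, Trim25 and Ube2l6 were called higher than in medium, Trim2 was called lower (−0.35 on the log2 scale) and Trim12a was not called (0.28, with values on 12 of 88 arrays). Sequences were taken from RefSeq windows of GRCm38.p6 that run from 250 bases before an annotated start to 50 bases from it on. Some genes have several annotated starts, and some of these lie inside the gene. The table held windows for 58 of the members (73 windows). The core searched was GAAANNGAAA on both strands, and its letters are in capitals below, read 5′ to 3′ along the gene. The stretches hold the last 50 bases before the start and the next 50.
Trim21, chr7:102565433-102565532, minus strand: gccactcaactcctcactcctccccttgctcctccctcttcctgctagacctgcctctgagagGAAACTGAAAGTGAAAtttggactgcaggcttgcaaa
Trim34a, chr7:104244407-104244506, plus strand: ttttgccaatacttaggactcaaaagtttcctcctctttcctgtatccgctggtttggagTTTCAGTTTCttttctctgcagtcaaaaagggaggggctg
Trim30a, chr7:104446076-104446175, minus strand: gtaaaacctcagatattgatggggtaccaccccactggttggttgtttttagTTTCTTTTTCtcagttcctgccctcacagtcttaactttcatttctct
Trim12a, chr7:104315446-104315545, minus strand: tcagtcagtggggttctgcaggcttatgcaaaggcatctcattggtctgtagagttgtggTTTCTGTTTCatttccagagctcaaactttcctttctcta
Trim2, chr3:84212789-84212888, minus strand: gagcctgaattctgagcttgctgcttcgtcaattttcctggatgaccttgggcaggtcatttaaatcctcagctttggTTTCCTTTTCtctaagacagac
Trim25, chr11:88999353-88999452, plus strand: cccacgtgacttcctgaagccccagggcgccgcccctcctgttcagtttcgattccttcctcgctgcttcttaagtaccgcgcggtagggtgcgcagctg
Ube2l6, chr2:84798778-84798877, plus strand: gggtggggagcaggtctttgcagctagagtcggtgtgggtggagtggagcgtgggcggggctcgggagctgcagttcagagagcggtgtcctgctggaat

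The core was present in 5 of 17 TRIM genes with a window (29.4%), in 0 of 19 E2 genes and in 1 of 22 USP genes (Usp17lc), against 3.99% of all 27025 genes in the table and 3.97% of the genes measured on the array. Of the 5 TRIM genes, Trim34a, Trim30a and Trim12a are chromosome 7 neighbours with related sequences and may not count as separate instances. In Trim21 there were 2 matches that overlapped each other, beginning 13 bases after the start. The match of Trim34a and that of Trim12a began 10 bases after the start. In the Trim30a window printed above it began 2 bases after a start that lies inside the annotated gene. A further window of Trim30a, at the outer start of the gene, held the letters 36 bases before that start. Of the 5 windows of Trim2, 1 held them 28 bases after its start, which also lies inside the annotated gene. Neither Trim25 nor Ube2l6 held these letters in its window of 300 bases. The kappa B letters GGGANTTTCC were in 0 of 58 members (0.466% of all genes), and the palindrome TGACGTCA of the cyclic AMP response element was in Ube2b, Ube2h and Usp29 (2.03% of all genes). A match is a string of letters and not evidence of binding.

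Values with a sign are log2 ratios, treated cells over cells in medium, averaged over the sets of a group and given ± SD. The deposited table does not state which dye is the numerator, and the direction is likely rather than known. It rests on 19 measured LPS target genes, whose median lay above 0 on 18 of 18 arrays with LPS alone. A member is called higher or lower where its adjusted p in limma, taken over all 10518 genes, was below 0.05. In at least 1 of the 15 comparisons with medium, 40 of 74 members were called, against 48.2% of all genes. The called members were 11 of 25 E2 genes, 13 of 25 USP genes and 16 of 24 TRIM genes. The plot of the 40 called members shows some TRIM, E2 and USP genes that were high after 4 h in the 3 treatments with LPS, and Usp2 low throughout.

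**Figure D1:**
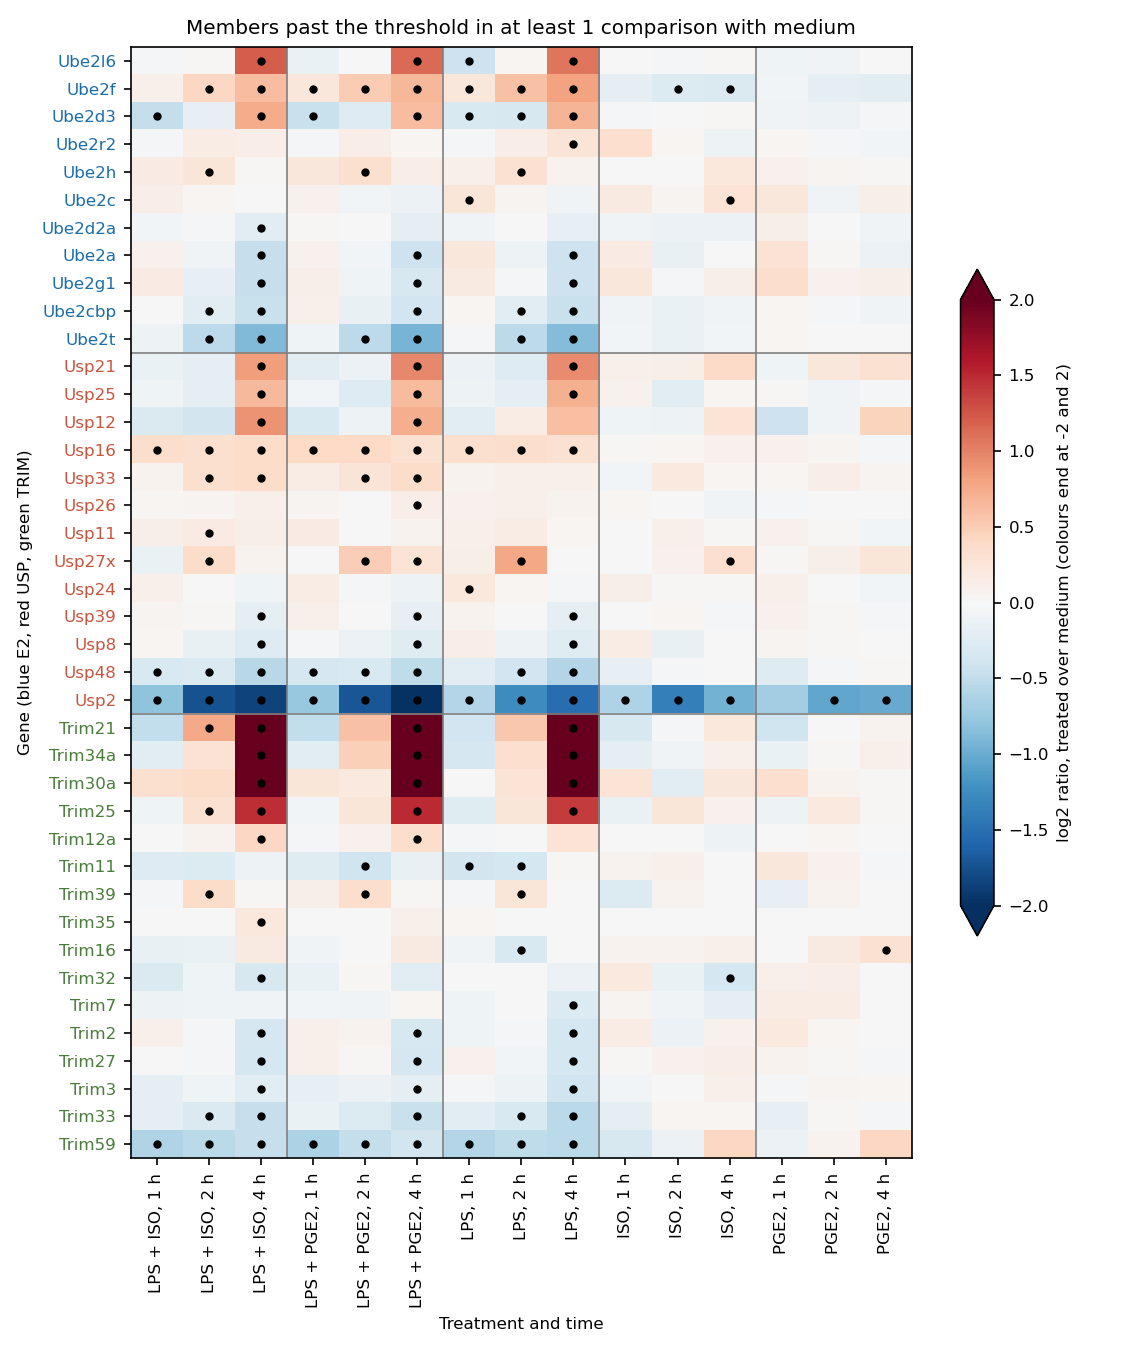
Mean log2 ratio, treated over medium, of the 40 members called in at least 1 of 15 comparisons (rows, ordered within a family by the value after 4 h of LPS) in each treatment and time (columns). Black dots mark adjusted p below 0.05 in limma. Trim21, Trim34a and Trim30a lie beyond the end of the colour scale at 4 h with LPS, and Usp2 is blue in all 15 columns.

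After 4 h with LPS, 11 members were higher and 14 were lower than in medium, against 14.3% of all genes higher and 16.4% lower. The strongest rises belonged to TRIM ligases. Trim21, a ligase that is also a cytosolic receptor for antibody-coated particles, had log2 ratios of 2.50, 3.32 and 2.71 in the 3 LPS sets, so that LPS-treated cells had 7.18 times the level of medium cells (2.84 ± 0.43, SD, n = 3, adjusted p = 6.4e-12). Trim34a had 1.79, 3.09 and 2.24 and was 5.18-fold higher (2.37 ± 0.66, adjusted p = 9.59e-11). Every set lay far above the medium level of 0, and set 2 was the highest for both genes. Trim30a, a mouse ligase known to dampen Toll-like receptor signalling, had 1.70, 2.75 and 2.41 and was 4.87-fold higher (2.28 ± 0.54, adjusted p = 1.13e-11). Trim25, the ligase that activates the RNA sensor RIG-I, had 1.22, 1.39 and 1.56 and was 2.63-fold higher (1.39 ± 0.17, adjusted p = 3.39e-13). These were the 4 TRIM genes called higher. Trim21, Trim34a and Trim30a lie on chromosome 7, and Trim34a, Trim30a and Trim12a are neighbours there with related sequences, so their probes may share signal, which was not tested. Trim12a was measured on only 12 of 88 arrays.

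Another 6 TRIM genes were lower after 4 h with LPS. Trim59 had −0.55, −0.29 and −0.78 and was 1.45-fold lower (−0.54 ± 0.24, adjusted p = 0.0007), with −0.41 and −0.67 for its 2 probes. Trim33, a chromatin-binding ligase of the TGF-beta pathway, had −0.43, −0.60 and −0.59 and was 1.45-fold lower (−0.54 ± 0.095, adjusted p = 2.25e-05). All 3 sets of both genes lay below 0. Trim3 had −0.49, −0.40 and −0.33 (adjusted p = 6.88e-06), and Trim27 had −0.17, −0.41 and −0.47 (adjusted p = 0.000758). Trim2 had a mean of −0.35 and Trim7 one of −0.28 with 1 set at −0.06. The falls were small beside the rises, none reaching 2-fold. Several of these calls were lost when 1 set of every group was left out, which also leaves fewer degrees of freedom, while the ratios stayed below 0. Without set 3 Trim59 had −0.42 (adjusted p = 0.067), Trim2 −0.29 (0.119) and Trim7 −0.22 (0.323), without set 2 Trim27 had −0.32 (0.079), and without set 1 Trim7 had −0.23 (0.224). With arrays scaled to the same spread the calls of Trim59 (0.054) and Trim7 (0.354) were also lost. In a fit of the 3 LPS sets of 4 h on their own, 13 members passed.

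Of the 25 E2 genes, 4 were higher and 4 lower after 4 h with LPS. Ube2l6, the E2 of ISG15, had 0.94, 1.04 and 1.23 and was 2.10-fold higher (1.07 ± 0.15, SD, n = 3, adjusted p = 5.97e-08). Ube2f, the E2 that hands NEDD8 to some cullins, had 0.84, 0.86 and 0.69 and was 1.74-fold higher (0.80 ± 0.091, adjusted p = 3.43e-11). The sets of each gene were close together and far from 0. Ube2d3, an E2 that works with many RING ligases, had 0.60, 0.49 and 0.95 and was 1.60-fold higher (0.68 ± 0.24, adjusted p = 3.3e-07). Ube2r2, which works with cullin ligases, had 0.34, 0.12 and 0.31 (adjusted p = 0.033, and 0.159 without set 1, 0.274 without set 3 and 0.216 with arrays scaled to the same spread).

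Ube2t, the E2 of the Fanconi anaemia DNA repair pathway, was the E2 gene with the largest fall. It had −0.87, −0.66 and −1.10 and was 1.83-fold lower in LPS-treated cells than in medium (−0.87 ± 0.22, adjusted p = 5.4e-11). Ube2cbp had −0.49, −0.39 and −0.44 (adjusted p = 3.83e-06). For both genes the 3 sets stood clear of 0. Ube2g1, an E2 of protein degradation at the endoplasmic reticulum, had −0.39, −0.20 and −0.66 (adjusted p = 0.00228, and 0.223 without set 3). Ube2a, which works with the repair ligase Rad18, had −0.47, −0.18 and −0.58 (adjusted p = 0.00754, and 0.245 without set 3).

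Among USP genes, 3 were higher and 4 lower after 4 h with LPS. Usp2, a deubiquitinase with a daily rhythm in many tissues that acts on cyclin D1 and Mdm2, had −1.14, −1.85 and −1.57 and was 2.87-fold lower (−1.52 ± 0.36, SD, n = 3, adjusted p = 1.3e-09). No other member fell by 2-fold with LPS alone at 4 h. Usp48 had −0.47, −0.62 and −0.67 and was 1.50-fold lower (−0.59 ± 0.10, adjusted p = 1.47e-06). Usp39 had −0.25, −0.15 and −0.16 (adjusted p = 0.000462), and Usp8, which acts on endosomal cargo, had −0.25, −0.24 and −0.21 (adjusted p = 0.0256, and 0.181 without set 2 and 0.118 without set 3). Their sets lay close together, and the differences were small. With arrays scaled to the same spread the Usp8 call was lost (adjusted p = 0.12).

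Usp21, a deubiquitinase of histone H2A, had 1.05, 0.75 and 1.05 in LPS-treated cells and was 1.93-fold higher (0.95 ± 0.17, adjusted p = 2.15e-08). Usp25, which acts on TRAF proteins in cytokine and Toll-like receptor signalling, had 0.74, 0.57 and 0.83 and was 1.64-fold higher (0.71 ± 0.13, adjusted p = 4.57e-07). Usp16, another deubiquitinase of histone H2A, had 0.30, 0.39 and 0.23 and was 1.24-fold higher (0.31 ± 0.079, adjusted p = 0.000241). Every set of the 3 genes lay above 0. Usp12, which works in a complex with a WD-repeat cofactor, had 0.60, 0.29 and 0.90 and did not pass (adjusted p = 0.101).

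**Figure D2:**
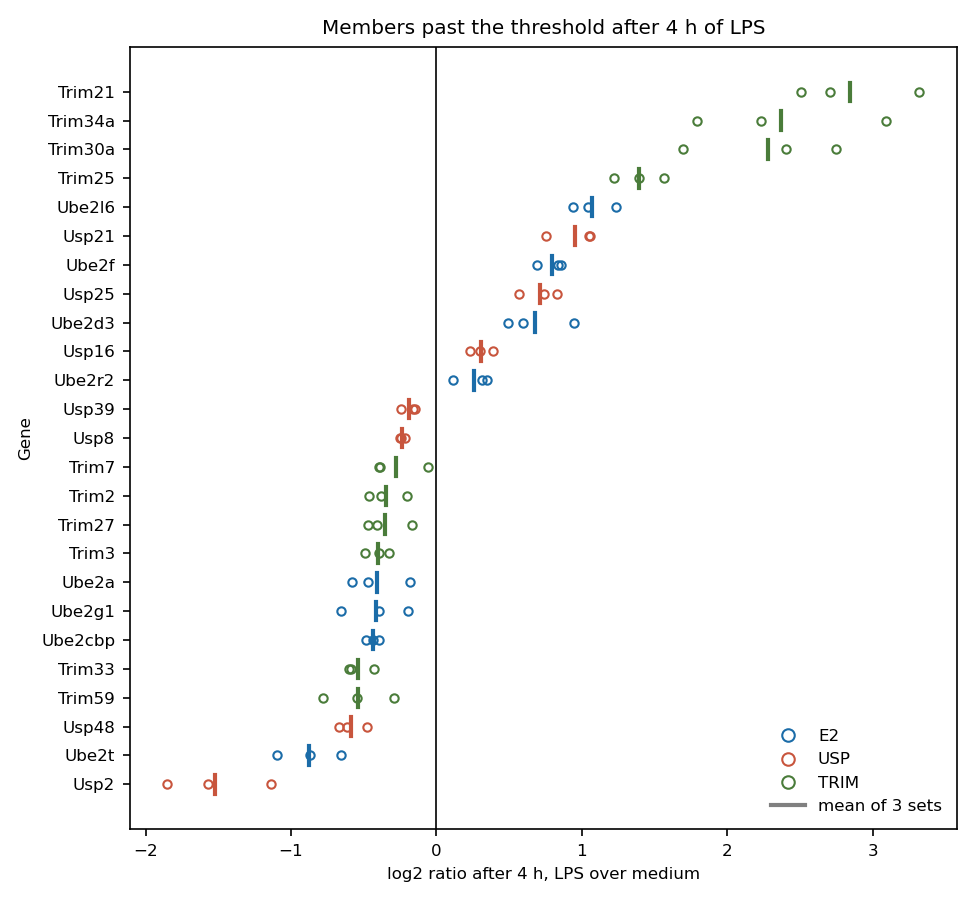
Log2 ratio of LPS over medium after 4 h for the 25 called members (horizontal axis), with 1 open circle per set and a bar at the mean of 3 sets, coloured by family. Trim21, Trim34a, Trim30a and Trim25 lie above 1 in all 3 sets, and Usp2 lies below −1 in all 3.

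At 4 h with LPS the 3 families had similar medians and different spreads. The median log2 ratio was 0 for TRIM genes, 0 for USP genes, 0.02 for E2 genes and 0 for all genes. The TRIM and USP medians fell on members whose mean was exactly 0. These were Trim10, Trim17, Trim29, Trim35 and Trim54, and Usp29 with values on 9 arrays. The likeness of the medians therefore rests partly on values of 0. The median size of a ratio, whatever its sign, was 0.25 over TRIM genes, 0.064 over USP genes and 0.090 over E2 genes, beside 0.11 over all genes. The quartiles of the TRIM genes reached from −0.29 to 0.033, those of the USP genes from −0.072 to 0.057, and those of the E2 genes from −0.090 to 0.086. At least 2-fold higher were 4 TRIM genes, 1 E2 gene and 0 USP genes, against 374 of all 10518 genes, and at least 2-fold lower was 1 USP gene, against 119. At 1 h with LPS the medians lay further apart, at −0.084 for TRIM, 0 for USP and 0.061 for E2 genes. The median sizes were then 0.084, 0.11 and 0.11, beside 0.077 over all genes. These are descriptions of the lists, which were not tested against each other.

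At 1 h with LPS the changes were small, with 4 members higher (4.64% of all genes) and 5 lower (4.84%). Usp16 had 0.34, 0.19 and 0.44 (0.32 ± 0.12, SD, n = 3, adjusted p = 0.000678). Ube2c, the E2 of the anaphase-promoting complex, had 0.43, 0.08 and 0.23 (0.25 ± 0.18, adjusted p = 0.00637), and Ube2f had 0.45, 0.02 and 0.21 (0.23 ± 0.22, adjusted p = 0.0334). All lay above 0, with set 2 the lowest of each gene. Trim59 had −0.45, −0.45 and −0.84 (−0.58 ± 0.22, adjusted p = 0.00156), Usp2 had −0.51, −0.34 and −0.89 (−0.58 ± 0.28, adjusted p = 0.015), and Trim11 had −0.16, −0.32 and −0.61 (−0.36 ± 0.23, adjusted p = 0.0486). Usp24 was higher at 0.21 and Ube2d3 lower at −0.31. Ube2l6 was called lower at −0.41 ± 0.75, but its sets had −1.27, 0.03 and 0.01, and without set 1 its mean was 0.019 (adjusted p = 1), against −0.63 without set 2. No member passed at 1 h in limma without set 3 of every group, and without set 1 there were 4 calls. With all sets 17 of 74 members had an unadjusted p below 0.05, against 2225 of all 10518 genes.

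At 2 h with LPS, 5 members were higher (8.88% of all genes) and 9 lower (7.01%). Usp27x, a deubiquitinase gene related to Usp22 of the SAGA complex, had 0.68, 0.61 and 1.04 and was 1.71-fold higher (0.78 ± 0.23, SD, n = 3, adjusted p = 7.05e-08). Its ratio at 1 h was 0.12 (adjusted p = 0.527) and at 4 h −0.0071 (adjusted p = 1), so with LPS alone it was called at 2 h and at neither of the other times. Ube2f had 0.68, 0.54 and 0.51 (0.58 ± 0.091, adjusted p = 1.31e-07) and Usp16 had 0.46, 0.36 and 0.25 (0.36 ± 0.10, adjusted p = 8.47e-05). Ube2h at 0.30 and Trim39 at 0.25 completed the higher members. Usp2 had −1.29, −1.09 and −1.41 and was 2.40-fold lower (−1.26 ± 0.16, adjusted p = 2.28e-07). Ube2t had −0.48, −0.38 and −0.73 (−0.53 ± 0.18, adjusted p = 4.88e-06), and Trim59 had −0.17, −0.74 and −0.60 (−0.50 ± 0.30, adjusted p = 0.00354, and 0.203 without set 2 and 0.096 without set 3). The other members called lower at 2 h were Usp48, Trim11, Ube2d3, Trim33, Trim16 and Ube2cbp, between −0.38 and −0.23. At 2 h 6 members passed without set 3 of every group and 9 without set 2.

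The response to LPS differed between the 3 times for 20 members (F test in limma, against 18.5% of all genes), namely 8 E2, 6 TRIM and 6 USP genes. The ratio furthest from 0 came at 4 h for 17 of them, at 2 h for 2 (Usp27x and Usp50) and at 1 h for 1 (Ube2c). The 2 Usp50 probes had 0.089 and 0.16 at 2 h but 0.20 and −0.12 at 4 h, and Usp50 was never called against medium. In the order of the hours, Trim25 had means of −0.25, 0.24 and 1.39 (adjusted p = 3.39e-10). Trim21 had −0.39, 0.55 and 2.84 (adjusted p = 9.15e-09), and at 2 h its sets were split, at 0.80, −0.29 and 1.13. Trim30a had −0.0017, 0.28 and 2.28 (adjusted p = 6.09e-08), and Trim34a had −0.33, 0.34 and 2.37 (adjusted p = 7.58e-08), with sets of 0.86, −0.30 and 0.46 at 2 h. None of these 4 ligases passed the threshold at 1 or 2 h with LPS alone. Set 2 was the lowest at 2 h in all 4 and the highest at 4 h in Trim21, Trim34a and Trim30a.

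Ube2d3 changed direction. Its sets had −0.34, −0.17 and −0.41 at 1 h and −0.40, −0.44 and −0.14 at 2 h with LPS, below medium, and lay between 0.49 and 0.95 at 4 h (F test adjusted p = 1.57e-07). The call at 1 h was lost without set 1 (−0.29, adjusted p = 0.215) and without set 3 (−0.26, 0.282), and that at 2 h without set 1 (−0.29, 0.141) and without set 2 (−0.27, 0.065), with ratios close to those of all sets (−0.31 and −0.32). Usp21 had means of −0.11, −0.26 and 0.95 (adjusted p = 4.61e-07) and Usp25 had −0.098, −0.18 and 0.71 (adjusted p = 7.99e-06), with no call before 4 h. Ube2f and Usp16 were higher at all 3 times, and Usp2 and Trim59 were lower at all 3. At 1 h none of these genes passed in limma without set 3 of every group. The 1 h calls of Ube2f and Usp2 were also lost without set 1 (adjusted p = 0.47 and 0.097). With arrays scaled to the same spread they were lost too (0.052 and 0.091). Usp16 did not pass the test between times, with means of 0.32, 0.36 and 0.31, and nor did Trim59, with −0.58, −0.50 and −0.54. This test passed 13 members when set 3 of every group was left out.

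**Figure D3:**
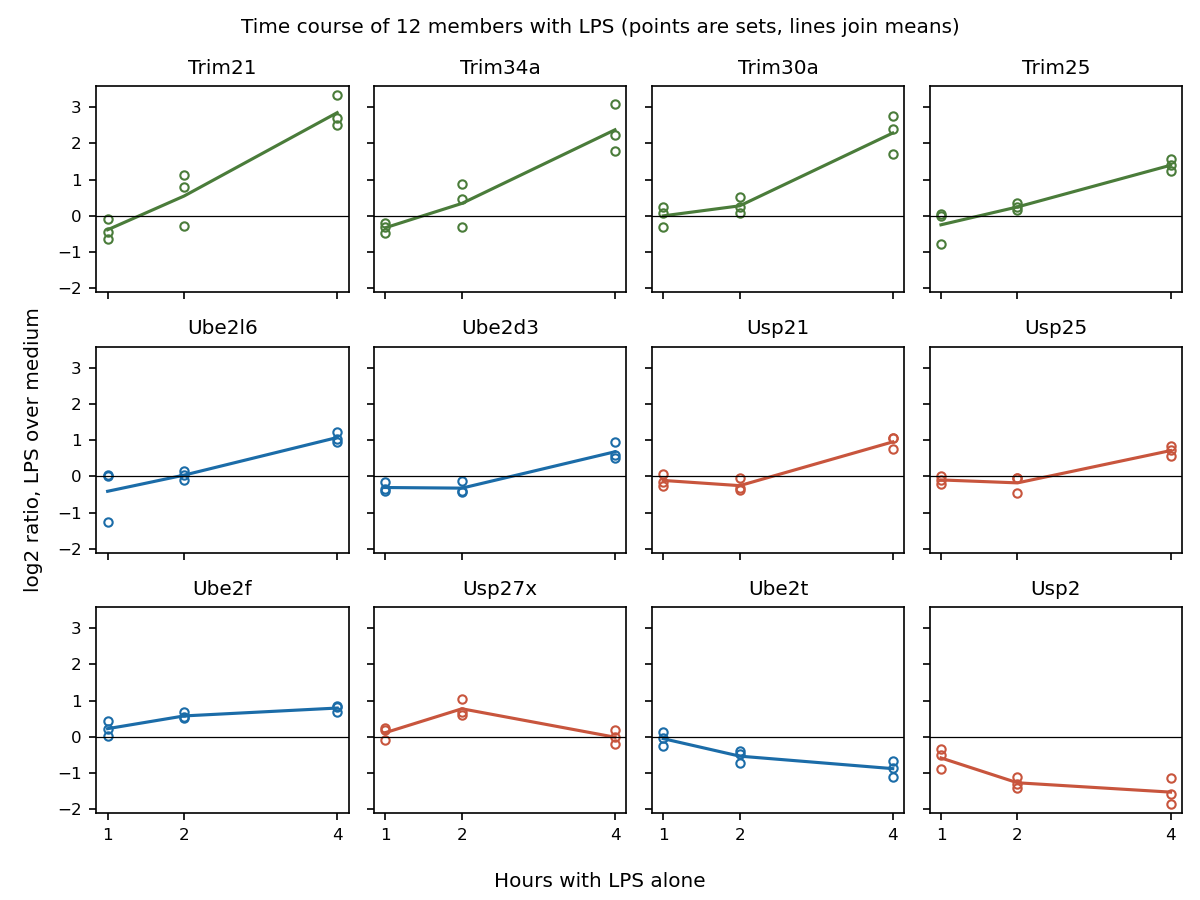
Log2 ratio of LPS over medium (vertical axis) after 1, 2 and 4 h (horizontal axis) for 12 members, with 1 open circle per set and lines through the means. The 4 TRIM genes, Ube2l6, Ube2d3, Usp21 and Usp25 have means of at most 0.55 until 2 h and rise above these at 4 h, Usp27x peaks at 2 h, and Ube2t and Usp2 decline.

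When ISO was given with LPS, 14 members were higher and 15 lower than in medium at 4 h (14.4% and 15.6% of all genes). Trim21 had 2.75, 3.24 and 2.93 (2.97 ± 0.25, SD, n = 3), Trim34a 1.96, 2.87 and 2.28 (2.37 ± 0.46), and Trim30a 1.50, 2.57 and 2.55 (2.20 ± 0.61), with adjusted p of 2.48e-12, 1.07e-10 and 2.82e-11. Trim25 had 1.46, 1.41 and 1.58, and Ube2l6 had 1.06, 1.07 and 1.51. Usp2 had −1.57, −2.20 and −1.79 and was 3.61-fold lower (adjusted p = 1.72e-11), Ube2t had −0.96, −0.65 and −1.05 (adjusted p = 4.11e-11), and Usp48 had −0.40, −0.57 and −0.67 (adjusted p = 4.79e-06). Usp12 was called at 0.90 ± 0.93, though its sets had 0.35, 0.38 and 1.97 and the adjusted p was 0.314 without set 3. Trim12a (0.41) and Trim35 (0.22) were also called. Their values came only from arrays with the treated RNA in Cy3, and those with the treated RNA in Cy5 were at 0. Trim35 had a value on only 4 arrays of the whole study. Without set 3 its mean with LPS and ISO at 4 h was 0. The Trim35 call therefore rested on the set 3 array with the treated RNA in Cy3. Without set 3 the Trim12a call was lost as well (0.36, adjusted p = 0.146).

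With PGE2 and LPS together, 15 members were higher and 13 lower at 4 h (15.2% and 16.5% of all genes). Trim21 had 2.83, 3.24 and 2.93 (3.00 ± 0.22, SD, n = 3, 7.99-fold), Trim34a 1.93, 2.98 and 2.20 (2.37 ± 0.54) and Trim30a 1.50, 2.58 and 2.59 (2.22 ± 0.62), with adjusted p of 1.95e-12, 1.03e-10 and 2.15e-11. Trim25 had 1.57, 1.33 and 1.57, and Ube2l6 had 0.95, 1.00 and 1.45. Usp2 had −1.66, −2.37 and −1.90 and was 3.93-fold lower (adjusted p = 3.88e-12), Ube2t had −0.93, −0.82 and −1.02 (adjusted p = 1.59e-11), and Usp48 had −0.26, −0.55 and −0.70 (adjusted p = 1.72e-05). Usp12 had −0.13, 0.47 and 1.85, and its call (adjusted p = 0.0386) was lost without set 3 (0.757) and without set 2 (0.145). Usp33 was called in both combinations at 2 h and 4 h, with means between 0.27 and 0.37. With PGE2 and LPS at 2 h the Usp33 call was lost without set 2 (0.28, adjusted p = 0.071) and without set 3 (0.20, 0.13). Without set 3 of every group, LPS with PGE2 gave 18 calls at 4 h.

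At 1 h, LPS with ISO had 1 member higher and 4 lower (4.15% and 3.27% of all genes), and LPS with PGE2 had 2 higher and 4 lower (4.7% and 2.99%). Usp16 was higher in both, with 0.40, 0.20 and 0.44 in the LPS with ISO sets and 0.38, 0.22 and 0.61 in the LPS with PGE2 sets (adjusted p = 0.000348 and 3.77e-05). The 3 lowest members of each combination were Usp2, Trim59 and Ube2d3. With ISO, Usp2 had −0.87, −0.53 and −0.998, Trim59 −0.45, −0.50 and −0.86, and Ube2d3 −0.67, −0.29 and −0.47. With PGE2, Usp2 had −0.75, −0.50 and −1.04, Trim59 −0.51, −0.55 and −0.82, and Ube2d3 −0.60, −0.19 and −0.55. Every one of these values lay below 0. Leaving out set 3 of every group left 1 call with either combination.

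At 2 h, LPS with ISO had 9 members higher and 6 lower (7.7% and 6.15% of all genes), and LPS with PGE2 had 6 higher and 5 lower (7.49% and 5.77%). With ISO, Ube2f had 0.57, 0.32 and 0.35, Trim39 0.48, 0.32 and 0.32, and Usp27x 0.20, 0.43 and 0.45. With PGE2, Ube2f had 0.61, 0.41 and 0.50, Usp27x 0.35, 0.53 and 0.58, and Usp16 0.49, 0.35 and 0.33. Trim21 was called with ISO at 0.75 ± 0.83 (adjusted p = 0.0248) although its sets had 1.43, −0.18 and 1.00, and the call was lost without set 1 (0.488) and without set 3 (0.437). Usp2 had −1.97, −1.36 and −1.90 with ISO and −1.83, −1.32 and −1.97 with PGE2. Trim59 had −0.19, −0.68 and −0.74 with ISO and −0.33, −0.59 and −0.52 with PGE2, and Ube2t had −0.50, −0.39 and −0.69 with ISO and −0.53, −0.42 and −0.60 with PGE2. Without set 3 of every group 6 members passed with either combination, and without set 2 there were 8 with ISO and 7 with PGE2.

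What ISO or PGE2 added to LPS was tested directly, as each combination against LPS alone at the same hour. No member passed in any of the 6 comparisons in limma. Among all genes 0.019% were called for ISO and 0% for PGE2 at 1 h, 0% for ISO and 0% for PGE2 at 2 h, and 0.0951% for ISO and 0.0285% for PGE2 at 4 h. At an unadjusted p below 0.05 there were 6, 3 and 4 of 74 members for ISO and 1, 3 and 4 for PGE2 at 1, 2 and 4 h. Of all 10518 genes, 629, 308 and 351 lay below it for ISO and 484, 242 and 424 for PGE2. The smallest unadjusted p belonged to Usp27x at 2 h with ISO, where the combination averaged 0.36 and LPS alone 0.78 (difference −0.42, 95% interval −0.68 to −0.15, adjusted p = 1). Usp33, known in human cells to deubiquitinate the beta2-adrenergic receptor, averaged 0.37 with LPS and PGE2 and 0.10 with LPS alone at 4 h (difference 0.27, 95% interval 0.097 to 0.44, adjusted p = 0.614). With ISO it averaged 0.36 (difference 0.26, 95% interval 0.089 to 0.44, adjusted p = 0.736).

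For the leading genes the intervals leave room for moderate differences. Trim21 differed by 0.13 with ISO (95% interval −0.54 to 0.80) and by 0.15 with PGE2 (−0.51 to 0.82) at 4 h. Usp2 differed by −0.33 with ISO (−0.79 to 0.12) and by −0.45 with PGE2 (−0.91 to 0.0012). At 2 h Usp2 differed by −0.48 with ISO (−0.93 to −0.023, adjusted p = 1) and by −0.44 with PGE2 (−0.89 to 0.015). Its mean lay lower in the combination than with LPS alone in all 6 comparisons, none of them past the threshold. Within each set number the Usp2 value was also lower in the combination, but differences within sets were not tested. These intervals do not pair samples by set number, although 39 of 44 sets lay closest to their own number. They may therefore misstate the spread of a difference within sets. Ube2f differed by −0.19 with ISO (−0.39 to 0.017) and by −0.13 with PGE2 (−0.33 to 0.074) at 4 h. Because the labels name lipid binding protein only for LPS alone, that difference cannot be told apart from the added ligand.

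**Figure D4:**
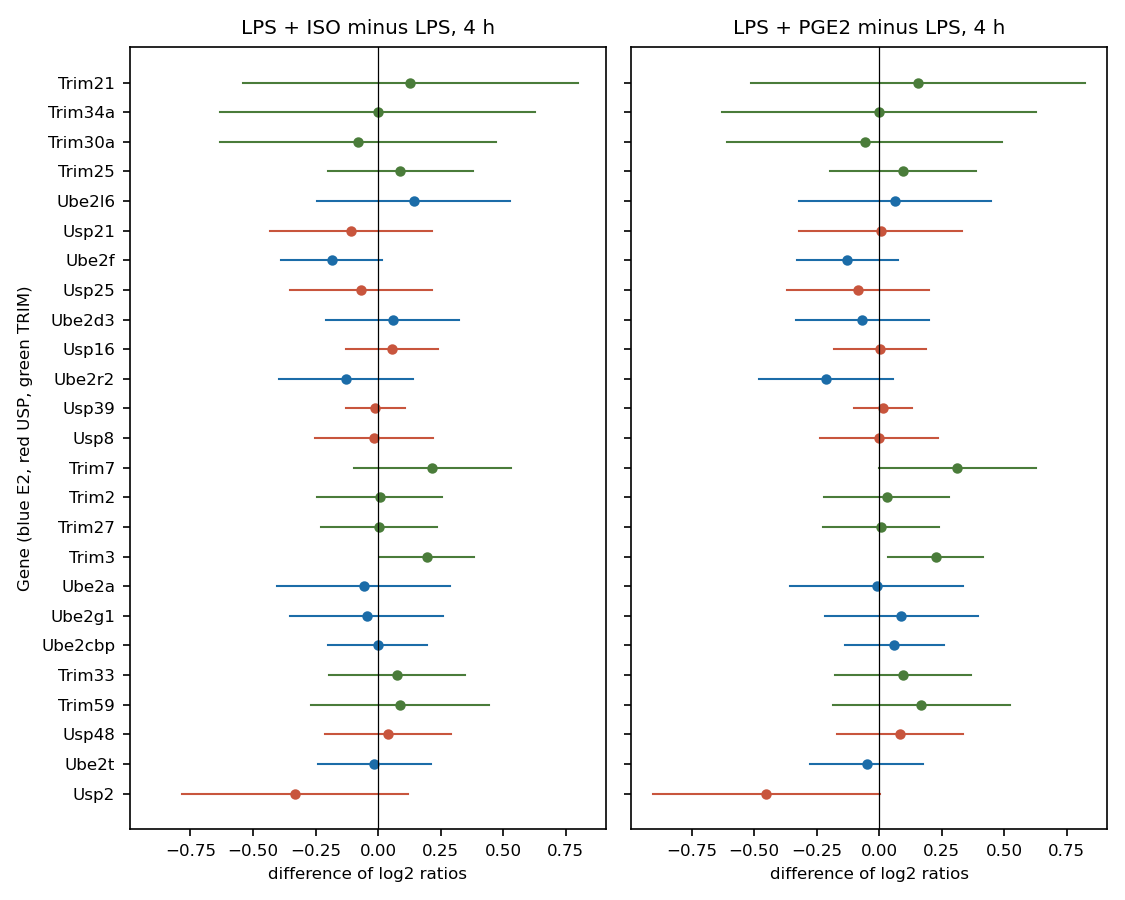
Difference of log2 ratios, combination minus LPS alone, after 4 h (horizontal axis) for the 25 members called with LPS at 4 h, with 95% intervals from limma that are not adjusted for the number of genes. Usp2 is the furthest to the left in both panels, and the intervals of most members include 0.

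ISO and PGE2 without LPS moved few members. In 10 of the 17 sets without LPS the 2 arrays, turned to treated over medium, had a correlation below 0. This was so in 0 of 27 sets with LPS. With ISO, 1 of 74 was called at 1 h (0.903% of all genes), 2 at 2 h (1.71%) and 5 at 4 h (3.36%). With PGE2, 0 were called at 1 h (0.323%), 1 at 2 h (0.456%) and 2 at 4 h (1.14%). At 1 h with PGE2, 8 members had an unadjusted p below 0.05, against 1007 of all 10518 genes. Usp2 accounted for 5 of the 11 calls with ISO or PGE2 alone. It had −0.70, −0.28 and −0.88 at 1 h with ISO (−0.62 ± 0.31, SD, n = 3, adjusted p = 0.0482), −1.31, −1.18 and −1.60 at 2 h (−1.36 ± 0.21, 2.58-fold lower, adjusted p = 1.08e-06) and −0.61, −1.20 and −1.03 at 4 h (−0.95 ± 0.30, adjusted p = 0.000267). With PGE2 its sets had −0.59 and −0.79 at 1 h (n = 2, adjusted p = 0.167), −0.85, −0.97 and −1.32 at 2 h (−1.05 ± 0.25, adjusted p = 0.000271) and −0.79, −1.17 and −1.07 at 4 h (−1.01 ± 0.20, adjusted p = 0.000211). All 44 sets of the study lay below 0 for Usp2. Treatments of the same set and hour may share medium RNA, so these may not be 44 separate observations. Without set 3 of every group its adjusted p was 0.594 at 1 h and 0.07 at 4 h with ISO, and 0.282 at 2 h and 0.081 at 4 h with PGE2, and without set 1 it was 0.145 at 1 h with ISO. With ISO the mean furthest from 0 came at 2 h, and with LPS at 4 h. No test between the times of ISO is reported here. Without set 1 of every group ISO had 3 calls at 1 h, without set 2 or without set 3 it had 1 at 2 h, and PGE2 had 0 at 2 h without set 3.

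Ube2f moved in opposite directions with LPS and with ISO, a contrast that was not itself tested. Against medium it was higher with LPS at all 3 times and lower with ISO at 2 h (−0.22, −0.22 and −0.38 in the sets, −0.27 ± 0.094, SD, n = 3, adjusted p = 0.031) and 4 h (−0.16, −0.35 and −0.34, −0.28 ± 0.11, adjusted p = 0.0172). With PGE2 it had −0.22, −0.09 and −0.27 at 2 h and −0.10, −0.28 and −0.25 at 4 h, which did not pass (adjusted p = 0.453 and 0.207). The ISO calls were lost without set 3 (0.52 and 0.344) and without set 2 (0.13 and 0.171), and at 2 h also without set 1 (0.058). The LPS call at 1 h was lost without set 1 (0.47) and without set 3 (0.211). Other calls with ISO at 4 h were Usp27x with 0.30, 0.40 and 0.31 (adjusted p = 0.0296), Ube2c with 0.17, 0.25 and 0.39 (adjusted p = 0.00698) and Trim32 with −0.47, −0.15 and −0.44 (adjusted p = 0.0492). For PGE2 at 4 h, Trim16 had 0.41, 0.29 and 0.23 (0.31 ± 0.094, adjusted p = 0.0359), but its mean was −0.029 on arrays with the treated RNA in Cy5 and 0.65 on those with it in Cy3. Without set 3 of every group no member passed with ISO at 4 h and none with PGE2 at 4 h. With all sets 11 members had an unadjusted p below 0.05 with ISO and 8 with PGE2, against 1688 and 1006 of all 10518 genes. Without set 2 there was 1 call at 4 h with each ligand. With arrays scaled to the same spread ISO had 2 members higher and 1 lower at 1 h, 2 and 2 at 2 h and 3 and 3 at 4 h, and PGE2 had 5 and 2 at 4 h, against 0 and 1, 0 and 2, 2 and 3, and 1 and 1 without scaling.

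**Figure D5:**
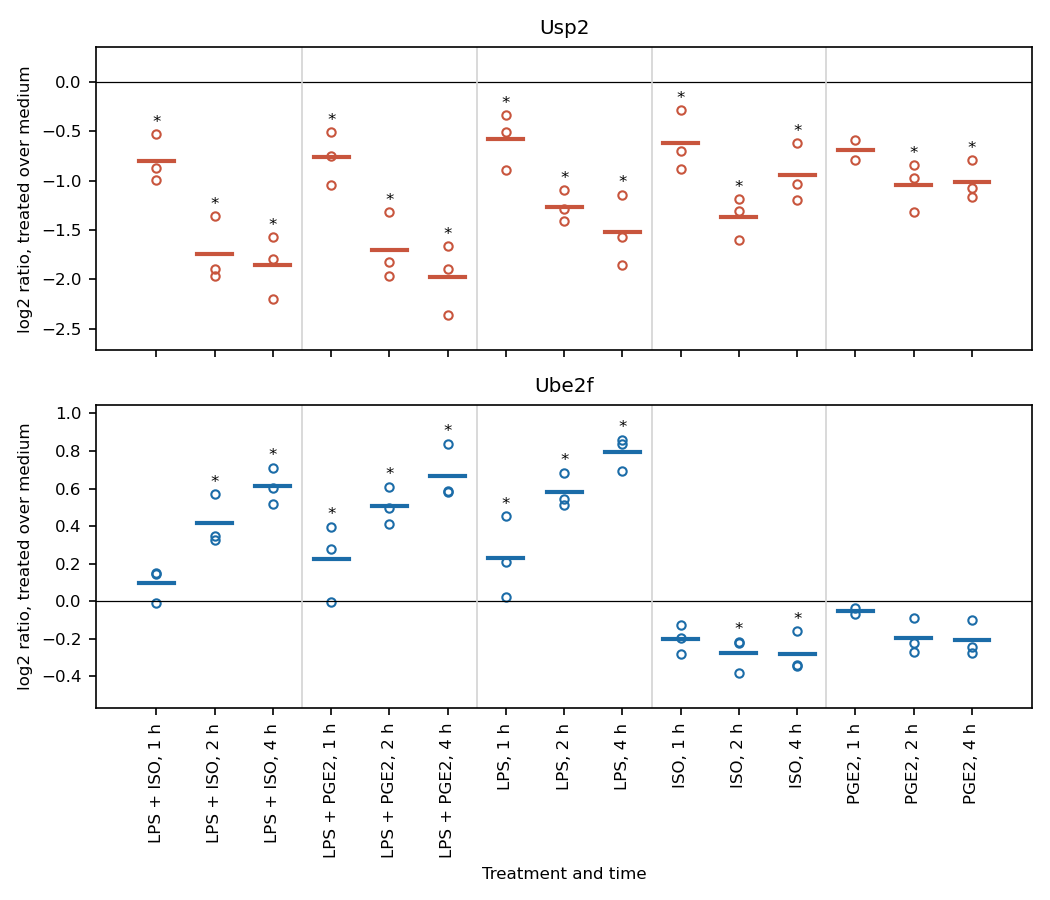
Log2 ratio, treated over medium (vertical axis), of Usp2 and Ube2f in each treatment and time (horizontal axis), with 1 open circle per set, a bar at the group's mean and an asterisk where adjusted p was below 0.05 in limma. Usp2 lies below 0 in every group, and Ube2f lies above 0 with LPS at 2 h and 4 h and below 0 with ISO or PGE2 alone.

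Several well-known members showed no call. Ube2n, which makes the signalling chains of Toll-like receptor signalling, had −0.15, 0.05 and 0.16 at 4 h with LPS (0.020 ± 0.16, adjusted p = 0.986), and its partner Ube2v1 had 0.04, −0.01 and 0.11 (adjusted p = 0.46). Over the 15 groups the means of Ube2n lay between −0.047 and 0.15 and those of Ube2v1 between −0.0099 and 0.10, where 1 of the 2 Ube2v1 probes averaged 0 in every group but LPS with PGE2 at 4 h and draws these means toward 0. The other Ube2v1 probe lay between −0.020 and 0.21, its highest value being that of LPS at 1 h. Trim28, the co-repressor of KRAB zinc-finger proteins, had 0.04, −0.51 and −0.47 at 4 h with LPS (adjusted p = 0.237). In all, 34 measured members were never called, with means between −0.66 and 0.48, and 26 of them had values on at least 80 of 88 arrays. Of the others, 5 had a value on fewer than 44 arrays. Ube2m and Usp7 had no probe under their symbol in the annotation used here and are not analysed.

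The rest of the ubiquitin pathway was read from gene lists, most of them of genes outside the 3 families, whose counts at 4 h with LPS stand beside 14.3% of all genes higher and 16.4% lower. The lists are short, and none was tested against the other genes. Of 4 measured E1 enzymes for ubiquitin and its relatives, 1 was higher and 2 lower at 4 h with LPS. Uba7, the E1 of ISG15, was 3.70-fold higher (1.89 ± 0.20, SD, n = 3, adjusted p = 4.39e-16). Of 7 ubiquitin and ubiquitin-like genes, 1 was higher and 2 lower, and Isg15 itself was 12.3-fold higher (3.62 ± 0.51, adjusted p = 1.14e-15). Both measured E2 genes of ubiquitin-like proteins, Ube2l6 and Ube2f, were higher. The E1, the E2 and the modifier of the ISG15 system were all called higher at 4 h, as was the mouse ISG15 ligase Herc6, at 6.45-fold (2.69 ± 0.36, adjusted p = 3.53e-18).

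Of 7 E2 genes of mitosis and genome repair, 0 were higher and 2 lower at 4 h with LPS (Ube2t and Ube2a). This count and those that follow again stand beside 14.3% of all genes higher and 16.4% lower. Of 31 ligase genes outside the TRIM family, 9 were higher and 5 lower, and their median log2 ratio was 0.082, beside 0 for all genes. They included Peli1, a ligase of Toll-like receptor signalling, at 6.66-fold (2.74 ± 0.32, SD, n = 3, adjusted p = 1.52e-13) and Socs1, the adaptor that ends cytokine receptor signalling, at 5.06-fold (2.34 ± 0.56, adjusted p = 3.24e-11). Of 18 deubiquitinases of other families, 5 were higher and 0 lower (median 0.071), led by Tnfaip3, the NF-kB inhibitor A20, at 5.07-fold (2.34 ± 0.32, adjusted p = 4.82e-17). Of 9 relatives of the 3 families under other symbols, 2 were higher and 1 lower, led by Pml, also known as Trim19, at 4.02-fold (2.01 ± 0.23, adjusted p = 4.96e-17). Among 9 macrophage markers 4 were higher and 1 lower, and among 19 markers of other cell types none was called in limma, with 1 at an unadjusted p below 0.05.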

How the data were processed

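The authors deposited 1 table of log2 ratios per probe and array for 88 arrays. No source used here states how images were read, normalized or filtered. The log2 scale was read from the deposited values, whose largest absolute value was 6.64, the log2 of 100. Column medians were 0, and 10.9 to 45.7% of probes per array were at exactly 0, whose meaning is not given. Intensities were not used here, so the number of arrays limits the precision.

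Ratios were read as Cy5 over Cy3 and turned to treated over medium by the dye labels, and the 2 arrays of a set were averaged. After turning they had r of 0.185 to 0.842 across probes in 27 sets with LPS and of −0.588 to 0.312 in 17 without, where a dye effect can outweigh the response. Symbols were updated through Entrez identifiers in a RefSeq table of GRCm38.p6, and probes of a gene were averaged. The 44 set means were fitted in limma 3.58.1 (R 4.3.3) with a mean per group and eBayes, with 29 residual degrees of freedom and Benjamini-Hochberg adjustment over 10518 genes, tested on simulated data. Tests of single contrasts are two-sided. Intervals and SD rest on sets.

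Members and gene lists were chosen with earlier results of these data known. Set values are given for, after 4 h of LPS, the 4 highest and 4 lowest called members of a family whose sets share a sign, for other comparisons the 3 highest and 3 lowest such, for the time test the 6 of lowest p, and for 17 genes named whatever their values. Alternatives covered zeros, centring, scaling, a filter, robust eBayes, single-group fits, the set number as a block and leaving out sets. The split by dye was chosen after seeing the data.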

Additional observations from a re-analysis of the deposited data

Results flagged for a closer look

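The response to LPS differed between 1, 2 and 4 h for 20 of 74 members by an F test of the difference in limma, against 18.5% of all genes. Ube2d3 was called lower at 1 h and 2 h and higher at 4 h (adjusted p = 1.57e-07 for the difference between times). Ube2l6 was called lower at 1 h and higher at 4 h (adjusted p = 7.57e-07), and its value at 1 h rested on set 1, at −1.27 beside 0.03 and 0.01 in the other sets.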

How the results depend on the processing

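Of 153 member calls against medium, 148 kept their direction and passed with zeros as missing (8027 genes tested), 150 with values centred on those other than 0, 129 with arrays scaled to the same spread, 150 with a filter on the arrays with a value (8589 genes), 151 with robust eBayes and 21 with each group fitted alone, which leaves few degrees of freedom. Scaling gave 8 calls for LPS with ISO at 1 h, 3, 4, 1, 3 and 7 for ISO at 1 h and 2 h and PGE2 at 1, 2 and 4 h, and 13 for the test between times. Robust eBayes gave 0 for ISO at 1 h. Groups fitted alone gave 13 calls for LPS, 4 for LPS with ISO and 4 for LPS with PGE2 at 4 h, and 0 elsewhere. There the fit of all groups had 6 to 21 members at an unadjusted p below 0.05, against 574 to 2663 of all genes.

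Leaving out set 1, 2 or 3 of every group gave 0 to 7, 6 to 16 and 18 to 26 calls for LPS at 1, 2 and 4 h, 1 to 7, 6 to 14 and 20 to 32 for LPS with ISO, 1 to 8, 6 to 15 and 18 to 30 for LPS with PGE2, 0 to 3, 1 to 2 and 0 to 6 for ISO, 0, 0 to 1 and 0 to 2 for PGE2, and 13 to 21 for the test between times. Without set 3, 76 calls remained, without set 2 there were 113 and without set 1 there were 128. Ube2l6 at 1 h with LPS turned to 0.019 without set 1 (−0.63 without set 2), and Trim16 at 4 h with PGE2 to −0.029 on arrays with the treated RNA in Cy5, an alternative chosen after seeing the data. The causes were not tested. The 6 comparisons of a combination with LPS alone gave 0 members under every alternative run.

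With the set number as a block, 152 of the 153 calls remained (Trim7 at 4 h with LPS was lost), ISO at 4 h had 8 calls and PGE2 at 1 h had 1. Samples of the same number had a median correlation of deviations of 0.092 (−0.419 to 0.766, over 0.1 in 148 of 301 pairs), against −0.044 for other numbers. Of 44 sets, 39 lay closest to their own number. The main fit and its intervals nevertheless did not pair samples by set number. No intensities were used, so what dim signal limits is unknown here.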
